A study of Mus musculus with 9 samples.

Results

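The genes described here are 44 genes of the cell cycle and of DNA replication, picked by their symbols from the 46072 genes listed in the deposited expression tables of mouse splenic monocytes. All 44 members were present, and 26108 of the 46072 genes had a value above 0 in at least 1 of the 9 libraries. The least covered member, Cenpf, had 21.7 fragments in its lowest library, and Hmgb2 had 6318 in its highest, so every member was measured in every mouse. Libraries came from the spleens of female C57BL/6 mice, 3 mice in each of 3 groups, and the monocytes were sequenced without stimulation in culture. Con mice received water by oral gavage for 6 days, and Van mice received vancomycin, a glycopeptide antibiotic, at 2 mg per mouse per day in 2 gavages of 1 mg. VanLip mice received the same vancomycin and then L654, a serine-glycine lipodipeptide of Bacteroidota that engages TLR2, by retro-orbital injection on days 7, 9 and 11. After gavage the mice rested without antibiotic, for 6 to 8 days in the general protocol and for 8 days in the mice sequenced, and the spleens were then taken. For the mice sequenced, the study names an injection in VanLip only. Control mice in its plasma and cytokine experiments were injected with PBS, and whether Con and Van mice here were is not stated. If they were not, injection and handling cannot be told apart from the lipid. Monocytes were enriched by removal of other cells rather than by positive sorting, and the antibody mixture described by the study included CD117, the product of Kit, which is carried by blood progenitors, along with antibodies to surface proteins of T, B and NK cells, neutrophils and eosinophils.

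Blood monocytes arise from dividing progenitors in bone marrow and, in mice, also in the spleen, and most stop dividing as they mature. A cell that enters the cycle makes E2F-driven transcripts first, which load and fire replication origins and supply nucleotides during S phase. Cyclin A and B, their kinase Cdk1, and the spindle and cytokinesis proteins follow in G2 and mitosis. In resting cells their genes are repressed by the DREAM complex. Such transcripts serve as a sign of cycling or recently cycled cells in a monocyte preparation, although some, such as Pcna and Hmgb2, are also made outside the cycle. In bulk RNA, a larger share of cycling cells and more RNA per cycling cell cannot be told apart.

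The libraries were not alike in depth. The Con and Van libraries held between 16151385 and 23018927 fragments, and the VanLip libraries between 42625868 and 46180176. The size of a single read in the tables matched 100 bases in Con and Van and 150 bases in VanLip, whereas the labels give 1 read length for the series, and the fragment numbers above rest on these inferred lengths. Depth, read length and the VanLip group cannot be told apart. Lyz2, Csf1r and Ly6c2, which mark monocytes, averaged 7922, 576.8 and 378.7 FPKM over all libraries, a scale that divides fragments by transcript length and library size. The 8 classical monocyte markers, which include these, had mean levels from 22.4 to 7922 FPKM with a median of 288.1. Of 8 markers of granulocyte-monocyte progenitors, Kit, Cd34, Mpo, Elane, Ctsg and Myb averaged between 0.313 and 0.720 FPKM, Prtn3 averaged 3.61 FPKM, and Ms4a3 was listed at 0 in every library. None of the 7 markers above 0 was called in any contrast at a DESeq2 adjusted p of 0.05 or under.

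Promoters of many cell cycle genes carry DNA elements that take part in their timing, and those of the members were searched for 3 of them. RefSeq windows from 250 bases before to 50 bases after the start (GRCm38.p6) were at hand for 37 members, which gave 40 promoters, and were searched on both strands for the CCAAT box (CCAAT), the cell cycle genes homology region or CHR (TTTGAA or TTCGAA) and the E2F element (TTTCCCGC, TTTCGCGC, TTTGCCGC or TTTGGCGC). Windows of 5 genes are shown, less their last 20 bases, because they hold the genes that were called and an example of each kind of timing. Kif23 and Hmgb2 were the called members, Ccnb2 and Cdk1 stand for the mitotic cyclin and its kinase, and Mcm5 stands for the replicative helicase. Capitals mark the matches on either strand.
Kif23 (chr9:61946770-61947049, minus strand): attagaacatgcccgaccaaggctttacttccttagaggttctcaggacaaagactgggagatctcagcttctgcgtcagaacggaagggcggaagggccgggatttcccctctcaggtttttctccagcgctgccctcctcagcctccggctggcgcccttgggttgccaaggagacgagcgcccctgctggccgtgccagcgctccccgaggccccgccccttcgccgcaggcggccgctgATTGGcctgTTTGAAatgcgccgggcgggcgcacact
Hmgb2 (chr8:57511593-57511872, plus strand): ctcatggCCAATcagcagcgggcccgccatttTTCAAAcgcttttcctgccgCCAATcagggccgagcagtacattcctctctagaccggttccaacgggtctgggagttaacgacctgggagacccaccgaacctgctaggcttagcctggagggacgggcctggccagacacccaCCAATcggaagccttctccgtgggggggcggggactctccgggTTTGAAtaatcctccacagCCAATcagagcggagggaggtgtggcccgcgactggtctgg
Ccnb2 (chr9:70421525-70421804, minus strand): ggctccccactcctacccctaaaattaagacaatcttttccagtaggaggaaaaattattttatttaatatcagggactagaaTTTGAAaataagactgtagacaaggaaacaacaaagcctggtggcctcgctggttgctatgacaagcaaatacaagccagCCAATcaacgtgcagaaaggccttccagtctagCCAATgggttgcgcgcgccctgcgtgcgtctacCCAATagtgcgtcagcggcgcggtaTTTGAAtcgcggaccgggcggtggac
Cdk1 (chr10:69352883-69353162, minus strand): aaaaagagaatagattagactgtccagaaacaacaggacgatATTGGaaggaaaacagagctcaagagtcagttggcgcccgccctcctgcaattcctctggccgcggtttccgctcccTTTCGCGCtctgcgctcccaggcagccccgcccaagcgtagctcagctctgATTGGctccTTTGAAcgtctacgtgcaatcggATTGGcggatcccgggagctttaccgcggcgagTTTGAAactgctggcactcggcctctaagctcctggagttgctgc
Mcm5 (chr8:75109259-75109538, plus strand): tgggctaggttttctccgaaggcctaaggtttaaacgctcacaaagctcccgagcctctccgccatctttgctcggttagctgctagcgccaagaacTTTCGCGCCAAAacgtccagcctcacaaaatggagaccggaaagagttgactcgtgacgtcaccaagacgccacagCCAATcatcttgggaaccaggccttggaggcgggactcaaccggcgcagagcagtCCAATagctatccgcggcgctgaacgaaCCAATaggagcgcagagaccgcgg

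Kif23 held 1 CCAAT box on the minus strand, ending 4 bases before its CHR element. Ccnb2 held 3 CCAAT boxes and 2 CHR elements, and Hmgb2 held 4 CCAAT boxes and 2 CHR elements. Cdk1 had 3 CCAAT boxes, 2 CHR elements and 1 E2F element. Mcm5 had 3 CCAAT boxes, 2 overlapping E2F elements on opposite strands and no CHR element. Among the 22 promoters of 20 mitotic members, 16 held a CHR element (72.7%) and 15 held both a CCAAT box and a CHR element (68.2%), whereas 19.2% and 7.52% of all 32851 promoters did. Among the 15 promoters of 14 replication and G1/S members, 6 held an E2F element (40%), against 1 of the 22 mitotic promoters (4.55%) and 2.26% of all promoters. Birc5, E2f1, Melk, Nusap1, Tk1 and Tyms had no match to any of the 3 elements. A match describes letters in the window and does not show that a factor was bound there.

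Median expression of the members was low beside that of the 8 classical monocyte markers (288.1 FPKM), and levels were uneven between roles. Pcna, Hmgb2 and Cks2 exceeded the lowest of those markers (22.4 FPKM). The median over members of the mean FPKM was 2.26, against 2.88 over the 18526 genes with an adjusted p for Van against Con. It was 1.14 for the 24 mitotic members (cyclins, kinases, checkpoint, anaphase and spindle genes) and 5.64 for the 16 replication and G1/S members. Mean FPKM was at least 1 in 32 members, under 1 in 12 and at least 10 in 4. Those 4 were Pcna (68.4 FPKM), the sliding clamp of DNA polymerase that also serves DNA repair, Hmgb2 (37.2 FPKM), a DNA-bending chromatin protein, Cks2 (35.7 FPKM), a small subunit of cyclin-dependent kinases, and Tk1 (12.5 FPKM), thymidine kinase. Cyclins A2, B1 and B2 and Cdk1 averaged 1.92, 0.922, 1.93 and 1.09 FPKM. The lowest levels were those of the kinetochore gene Cenpf (0.210 FPKM) and of Cdc6 (0.392 FPKM), which loads the helicase onto origins.

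**Figure D1:**
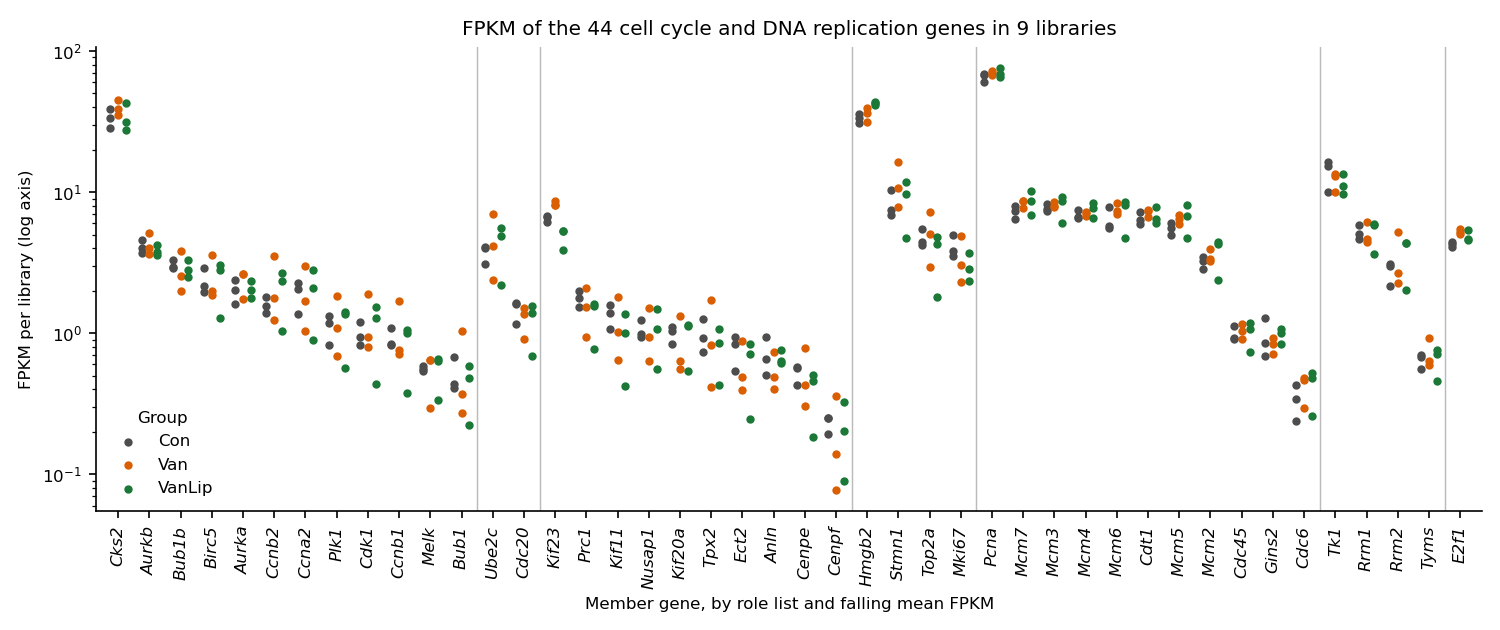
FPKM of each of the 44 members in each library (points, log axis), coloured by group and ordered by role and by falling mean level, with grey lines between the roles. Pcna, Hmgb2, Cks2 and Tk1 average at least 10 FPKM, and most mitotic genes lie near or under 2 FPKM in all 3 groups.

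The first comparison asked whether cycling transcripts differed in splenic monocytes after vancomycin and rest. DESeq2 called 0 members between Van and Con (Benjamini-Hochberg adjusted p of 0.05 or under), beside 4.33% of all genes with an adjusted p, 2.27% higher and 2.06% lower. The edgeR quasi-likelihood test and the limma fits also called 0 members. Fewer of all genes passed in them, 204 of 16867 in edgeR and 17 to 92 in limma. Kif23 was the 1 member called with only Con and Van fitted (beside 975 of 11257 genes) or without VanLip replicate 1 (beside 913 of 14841). E2f1 was the 1 member called without VanLip replicate 2 (beside 811 of 14894 genes). In the fit of all libraries, 2 members, Kif23 and E2f1, had an unadjusted DESeq2 p under 0.05, beside 11.1% of all genes. The median log2 fold change of the members was 0.07, against -0.01 over all genes, and it turned to -0.18 without Van replicate 2. FPKM values were fully separated between Van and Con in 2 members, again Kif23 and E2f1, and in 19.4% of all genes.

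The comparison of VanLip with Con asked whether these transcripts in mice given vancomycin and then the lipid differed from those of water-gavaged mice. DESeq2 called 2 members, Hmgb2 higher and Kif23 lower in VanLip, which is 2 of 44 beside 6.67% of all genes (2.98% higher and 3.69% lower), and 3 members had an unadjusted p under 0.05, beside 13%. The median log2 fold change was -0.01 in the members and 0.01 over all genes, and it was 0.17 without VanLip replicate 1. Groups did not overlap in 3 members, E2f1 and Hmgb2 being higher and Kif23 lower, beside 23% of all genes. The call of both genes was lost in edgeR, in limma and without Con replicate 1 (0 members called). All genes called were then 300 of 16867 in edgeR, 168 to 339 in limma and 606 of 17912 without Con replicate 1. The call of Kif23 alone was lost without Con replicate 2 (1 member called, beside 690 of 17928 genes). Without VanLip replicate 1, 5 of 44 members were called, beside 846 of 15323 genes.

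VanLip was then compared with Van, that is vancomycin and injected lipid with vancomycin. DESeq2 again called 2 members, Hmgb2 higher and Kif23 lower in VanLip, beside 9.85% of all genes (4.58% higher and 5.27% lower). The median log2 fold change was -0.06 in the members and 0.01 over all genes, turning to 0.16 without either Van replicate 2 or VanLip replicate 1, and the groups did not overlap in 2 members beside 25.1% of all genes. The count fell to 1, Kif23, in edgeR and limma, with those 2 groups fitted alone, with the replicate number fitted as a block, and without any 1 of Con replicate 2, Van replicates 1 and 3 and VanLip replicates 1 and 2. All genes called were 855 of 16867 in edgeR and 516 to 829 in limma. The likelihood-ratio test of any difference among the 3 groups called the same 2 genes, beside 13.5% of all genes. In the DESeq2 fit of all 9 libraries, the share of members called was under the share of all genes in every contrast. For VanLip against Con it was above that share in some other fits, such as without VanLip replicate 1 (5 of 44 beside 846 of 15323). The 3 contrasts share their groups of 3 libraries and do not replicate each other. Over the 44 members, log2 values ran from -0.40 (Anln) to 0.54 (Cdc6) for Van against Con, from -0.55 (Kif11) to 0.69 (Cdc6) for VanLip against Con, and from -0.79 (Kif23) to 0.32 (Anln) for VanLip against Van. Values above 0 were found in 25, 21 and 15 of the 44 members in that order. Standard errors had a median of 0.31 in each contrast and ran from 0.08 for Pcna to 0.53 for Ccna2, so an uncalled member could still differ by the bounds of its interval, which over all members reached folds of 0.418 and 2.31 in the first contrast.

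**Figure D2:**
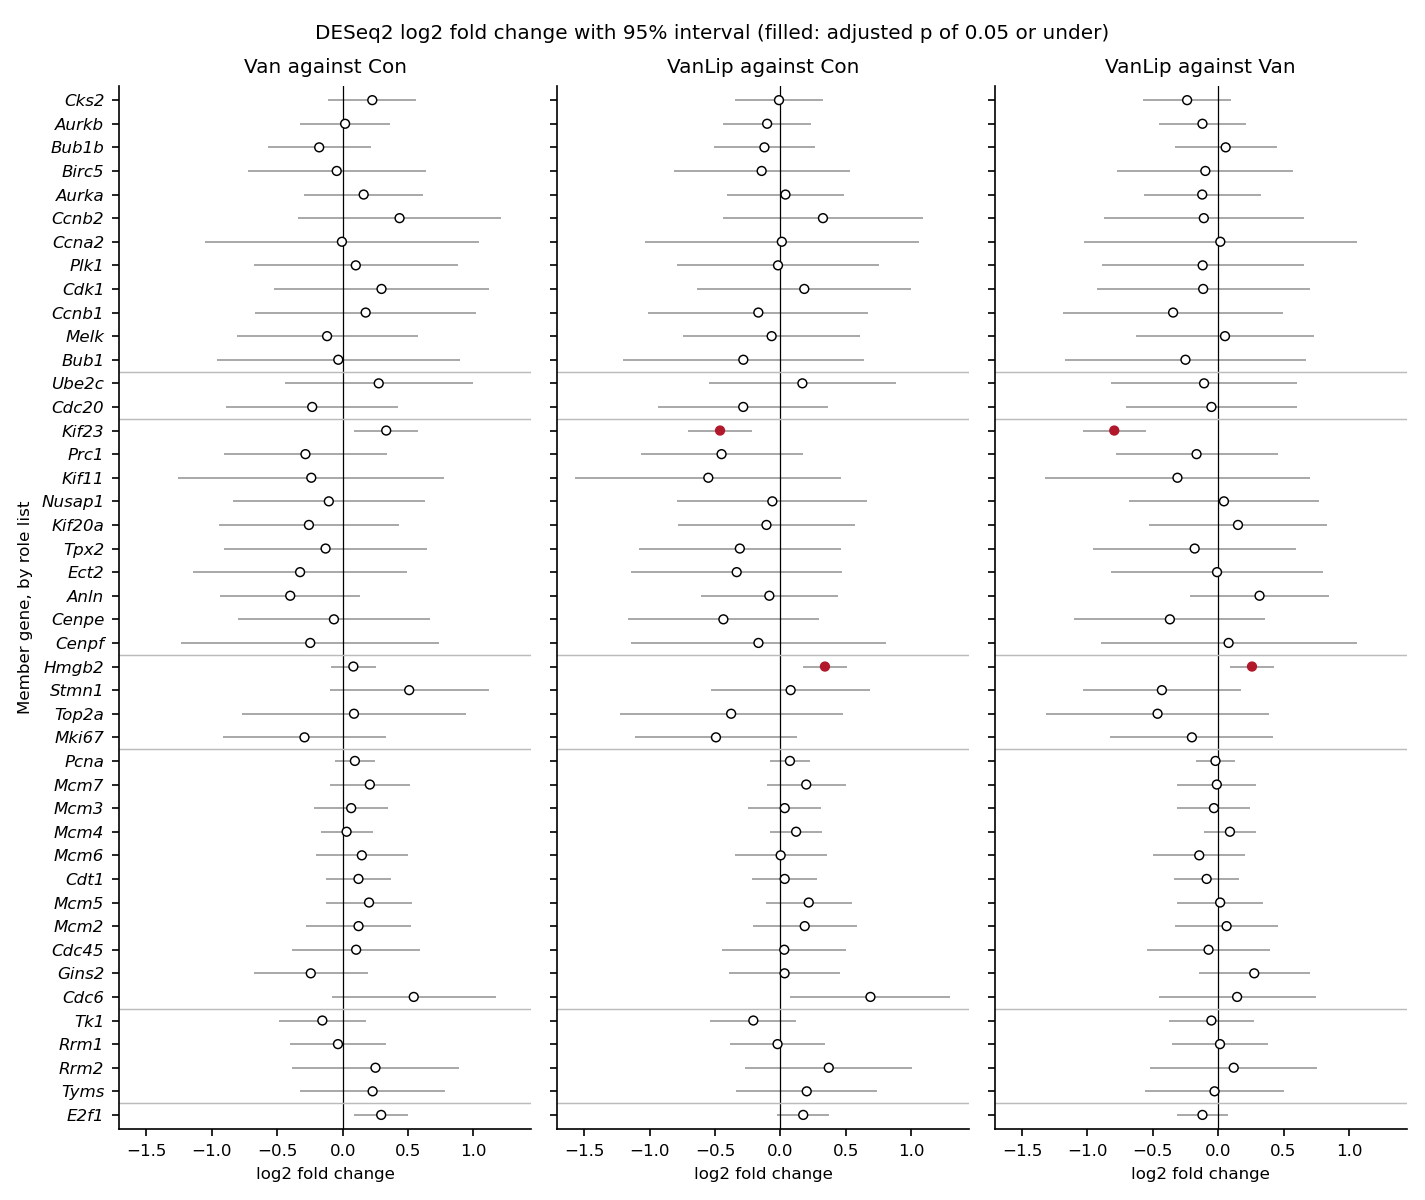
DESeq2 log2 fold change (point) with its 95% interval (line) for each member in the 3 contrasts, ordered by role; filled points have an adjusted p of 0.05 or under. Kif23 lies at -0.46 and -0.79 and Hmgb2 at 0.34 and 0.26 in the VanLip contrasts, and the wide intervals of the mitotic genes all include 0 apart from Kif23.

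Kif23 (ENSMUSG00000032254, GRCm38 chromosome 9, 61915905 to 61946774, protein coding) encodes the kinesin of centralspindlin, which bundles the midzone spindle before cytokinesis. Its FPKM was 6.78, 6.61 and 6.18 in Con, 8.08, 8.68 and 8.11 in Van, and 3.86, 5.26 and 5.30 in VanLip. Every Van library was above every Con library, and every VanLip library was below both groups. Means were 6.52 ± 0.31 FPKM for Con, 8.29 ± 0.34 FPKM for Van and 4.81 ± 0.82 FPKM for VanLip over 3 mice (± SD). VanLip thus stood at 0.576 times Van in the fit (95% interval 0.488 to 0.681), or -0.79 on the log2 scale, at a DESeq2 adjusted p of 1.22e-08. That difference was called under every alternative tried, including edgeR (adjusted p = 0.00428) and the 3 limma fits (adjusted p from 0.00494 to 0.0231). Against Con, VanLip was lower by a log2 value of -0.46 (standard error 0.12, DESeq2 adjusted p = 0.00627), with an edgeR adjusted p of 0.0758. Van exceeded Con by 0.33 (standard error 0.12), which did not pass (DESeq2 adjusted p = 0.110). It passed when only Con and Van were fitted (adjusted p = 0.00432) and without VanLip replicate 1 (adjusted p = 0.00314).

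Of the members that act with Kif23 in cytokinesis, Prc1, Ect2 and Anln, none was called. Prc1, which crosslinks midzone microtubules, had 1.99, 1.53 and 1.77 FPKM in Con, 1.53, 2.08 and 0.943 in Van, and 0.772, 1.61 and 1.57 in VanLip. Its groups overlapped, and its log2 fold change for VanLip against Van was -0.17 with a 95% interval from -0.79 to 0.45. Ect2, the exchange factor that centralspindlin recruits, and Anln, the anillin of the contractile ring, averaged 0.653 and 0.640 FPKM, with log2 values of -0.01 and 0.32 for VanLip against Van, and neither passed the test. The remaining spindle and centromere members, Kif11, Kif20a, Nusap1, Tpx2, Cenpe and Cenpf, had mean levels between 0.210 and 1.14 FPKM. Of the 10 genes of this role, 9 had a log2 value below 0 in Van relative to Con, as had 10 in VanLip relative to Con, with medians of -0.24 and -0.32 against -0.01 and 0.01 over all genes. In Van relative to Con, Kif23 was the gene above 0. DESeq2 called 0 of the 10 in the fit of all libraries (1 at an unadjusted p under 0.05), beside 4.33% of all genes. In edgeR and limma 0 were called too, beside 204 of 16867 genes in edgeR and 17 to 92 genes in limma. In VanLip relative to Con, Kif23 was called, 1 of 10 beside 6.67%. The mean relative log2 level of the 10 genes (log2 of FPKM plus 0.1, less each gene's mean over all libraries) was -0.02, 0.28 and 0.24 in Con. It was -0.13, 0.56 and -0.49 in Van and -0.75, 0.05 and 0.26 in VanLip. The groups thus overlapped, VanLip replicate 1 was lowest, and the signs of genes in the same libraries are not separate observations.

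Hmgb2 (ENSMUSG00000054717, chromosome 8, 57511907 to 57515999, protein coding) had 31.0, 33.3 and 35.8 FPKM in Con, 31.5, 39.2 and 36.1 in Van, and 43.8, 42.96 and 41.5 in VanLip. All 3 VanLip libraries were above the 6 others, and Con and Van overlapped. VanLip exceeded Con by 0.34 and Van by 0.26 on the log2 scale (standard errors 0.09), at DESeq2 adjusted p of 0.00345 and 0.0334. In edgeR these had adjusted p of 0.0603 and 0.0883, and with a replicate block the second had a DESeq2 adjusted p of 0.0582. For VanLip against Van the DESeq2 adjusted p ranged from 0.0162 to 0.179 when 1 library was left out. Van differed from Con by 0.08, with a 95% interval from -0.09 to 0.25.

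The other chromatin and proliferation markers were not called in any contrast, and their libraries overlapped. Mki67, which encodes the Ki-67 coat of mitotic chromosomes, had 3.54, 3.81 and 5.00 FPKM in Con, 3.04, 4.85 and 2.30 in Van, and 2.35, 2.84 and 3.70 in VanLip. On the log2 scale Van stood at -0.29 relative to Con (95% interval -0.91 to 0.33) and VanLip at -0.49 (95% interval -1.12 to 0.13). Without Van replicate 2 the first of these was -0.62, and Mki67 was called in the test of any difference, while without Van replicate 3 or Con replicate 3 the first was -0.08 or -0.14. Top2a, topoisomerase II, had 4.18, 4.40 and 5.52 FPKM in Con, 5.06, 7.20 and 2.95 in Van, and 1.79, 4.27 and 4.78 in VanLip. The extremes of all 9 libraries thus lay in Van replicate 2 and VanLip replicate 1, and the log2 value for VanLip against Van, -0.46, had a 95% interval from -1.32 to 0.39. It was -0.08 without Van replicate 2, -0.16 without VanLip replicate 1 and -0.73 without Van replicate 3. Stmn1, a destabiliser of microtubules, had 6.85, 7.48 and 10.3 FPKM in Con, 10.8, 16.4 and 7.89 in Van, and 4.72, 11.8 and 9.61 in VanLip, with a log2 value of 0.51 for Van against Con (95% interval -0.10 to 1.12) and 0.20 without Van replicate 2.

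**Figure D3:**
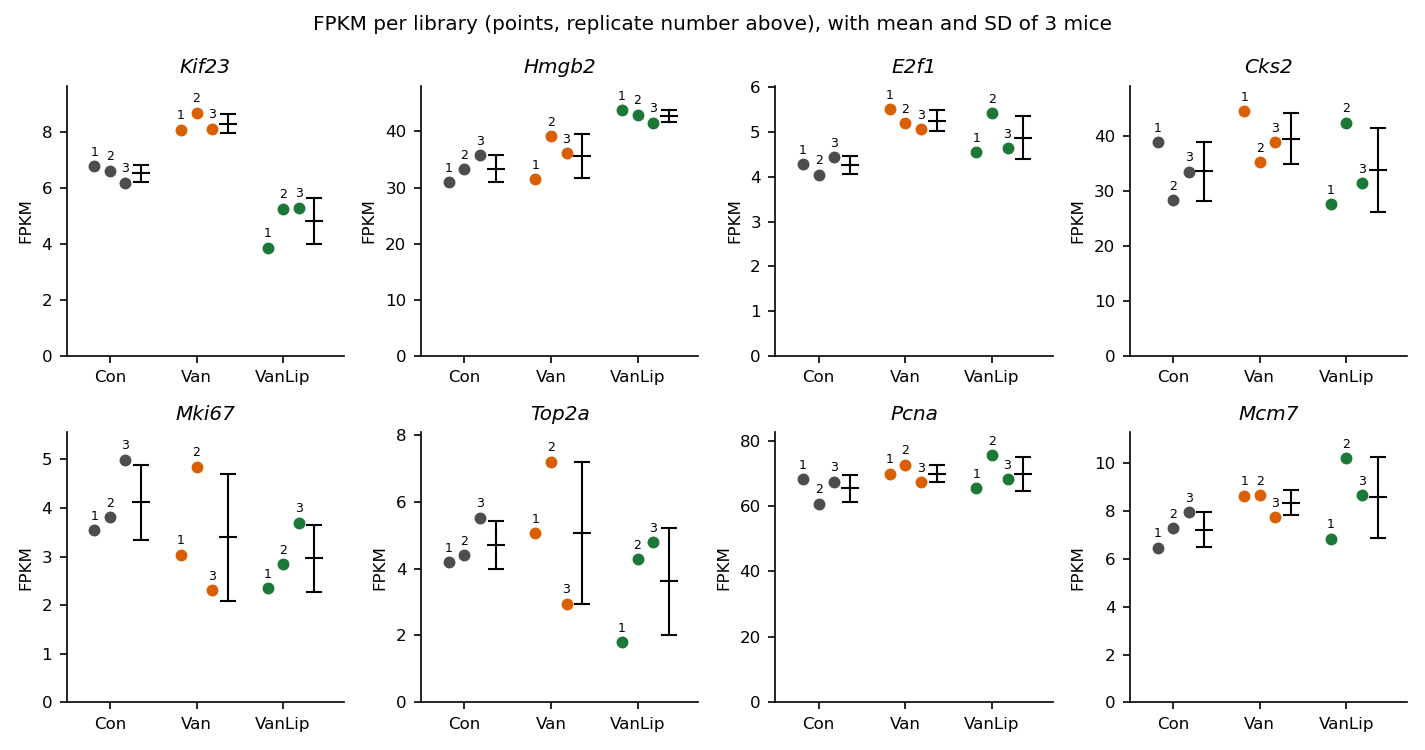
FPKM of 8 members in each library (points, with the replicate number above) with the group mean and SD of 3 mice beside them (black), each axis starting at 0. Kif23 separates all 3 groups and Hmgb2 sets VanLip above the other libraries, whereas Top2a spans 1.79 to 7.20 FPKM with the groups overlapping.

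Mitotic cyclins, kinases and checkpoint genes gave 0 calls with DESeq2 in each contrast (0 of 12 at an unadjusted p under 0.05), beside 4.33%, 6.67% and 9.85% of all genes. In edgeR they gave 0 calls too, beside 204, 300 and 855 of 16867 genes. Their DESeq2 medians were 0.06, -0.04 and -0.12 in Van over Con, VanLip over Con and VanLip over Van. Cks2 had 39.0, 28.3 and 33.5 FPKM in Con, 44.6, 35.3 and 38.9 in Van, and 27.7, 42.5 and 31.4 in VanLip, and the groups overlapped. Aurkb, the kinase of the chromosomal passenger complex, had 3.68, 4.59 and 4.02 FPKM in Con, 4.02, 5.09 and 3.63 in Van, and 3.76, 4.23 and 3.60 in VanLip. Its 95% interval for Van against Con, from -0.32 to 0.36, was among the narrower ones of this role. For Ccna2, cyclin A2, the interval ran from -1.05 to 1.04 in the same contrast, which includes both a doubling and a halving. The anaphase genes Cdc20, an activator of the APC/C ubiquitin ligase, and Ube2c, its ubiquitin-conjugating enzyme, were measured at 1.17, 1.60 and 1.64 and at 3.07, 4.07 and 4.03 FPKM in Con. In Van, Cdc20 had 1.37, 1.52 and 0.902 and Ube2c had 4.15, 6.95 and 2.39 FPKM. In VanLip, Cdc20 had 0.685, 1.40 and 1.56 and Ube2c had 2.199, 4.89 and 5.58 FPKM. Within Van and within VanLip, replicates of Ube2c differed by more than the means of the groups did.

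Replication and G1/S genes varied less within groups, with a median within-group SD of 0.26 on the log2 scale against 0.51 for the mitotic members. Pcna had 68.2, 60.7 and 67.4 FPKM in Con, 69.9, 72.6 and 67.3 in Van, and 65.5, 75.6 and 68.3 in VanLip. Its log2 fold changes were 0.09, 0.07 and -0.02, with 95% intervals from -0.06 to 0.24 for Van against Con and from -0.17 to 0.13 for VanLip against Van. Mcm7, a subunit of the replicative helicase, had 6.47, 7.29 and 7.95 FPKM in Con, 8.65, 8.68 and 7.75 in Van, and 6.85, 10.2 and 8.68 in VanLip. Its groups overlapped, and its log2 value for Van against Con was 0.21 (95% interval -0.10 to 0.51). The 6 helicase subunits Mcm2 to Mcm7 averaged between 3.47 and 8.06 FPKM. Of the 11 licensing and fork genes, 10 had a log2 value above 0 in Van relative to Con, as had 11 in VanLip relative to Con. Medians were 0.12 and 0.07 against -0.01 and 0.01 over all genes. DESeq2 called 0 in either contrast, beside 4.33% and 6.67% of all genes. In edgeR 0 were called too, beside 204 and 300 of 16867 genes. At an unadjusted DESeq2 p under 0.05 there were 0 and 1, beside 11.1% and 13% of all genes, the latter being Cdc6 (log2 value 0.69, 95% interval 0.08 to 1.30). Without VanLip replicate 1, the library lowest in 28 of the 44 members, Cdc6, Mcm2 and Mcm5 were called higher in VanLip than in Con. That fit called 5 of all 44 members in this contrast, beside 846 of 15323 genes.

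E2f1 (ENSMUSG00000027490, chromosome 2, 154559407 to 154569892, protein coding), the transcription factor that switches on S phase genes, had 4.28, 4.05 and 4.45 FPKM in Con, 5.51, 5.20 and 5.07 in Van, and 4.55, 5.42 and 4.64 in VanLip. All libraries of both vancomycin groups were above all Con libraries. On the log2 scale Van exceeded Con by 0.29 (standard error 0.10, DESeq2 adjusted p = 0.0833) and VanLip exceeded Con by 0.17 (standard error 0.10, adjusted p = 0.3595), and neither passed. Without VanLip replicate 2, the former was called (adjusted p = 0.0441). Among the nucleotide enzymes, Rrm1, the large subunit of ribonucleotide reductase, had 5.01, 4.63 and 5.85 FPKM in Con, 4.64, 6.16 and 4.45 in Van, and 3.64, 5.86 and 5.97 in VanLip. Tk1 had 16.4, 9.96 and 15.2 FPKM in Con, 13, 13.5 and 9.996 in Van, and 9.70, 11.1 and 13.3 in VanLip. Both overlapped in all groups, and neither they nor Rrm2 and Tyms were called.

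The members, and the mitotic ones above all, varied between mice of a group. Within-group SD on the log2 scale exceeded the range of the 3 group means in 36 of 44 members (81.8%), and in 32% of all genes. The median within-group SD was 0.37 and the median range of group means 0.24, against 0.20 and 0.27 over all genes. Among the 24 mitotic members, 22 had an SD above that range, with a median SD of 0.51, and of the 16 replication and G1/S members 12 had (75%), with a median SD of 0.26. The highest library of a group exceeded the lowest by a median of 1.36 times in Con, 2.37 times in Van and 2.46 times in VanLip for the mitotic members. For replication and G1/S members these ratios were 1.23, 1.21 and 1.57, against 1.25, 1.25 and 1.30 over all genes.

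Among the mitotic members the same libraries carried this spread. Van replicate 2 had the highest FPKM of the 9 libraries in 24 of the 44 members and in 19 of the 24 mitotic ones, against 13.5% of all genes with FPKM above 0 in every library. VanLip replicate 1 had the lowest in 28 of the 44 and in 17 of the 24 mitotic ones, against 13.5% of all genes. The 16 replication and G1/S members differed in their highest library, which was Van replicate 2 in 3 (18.8%) and VanLip replicate 2 in 8 (50%), and their lowest was VanLip replicate 1 in 9 (56.2%). Within VanLip, replicate 1 was lowest for 40 of 44 members, and within Van, replicate 2 was highest for 39 and replicate 3 lowest for 33. On the log2 scale, the mean relative level of the mitotic members (each gene's log2 of FPKM plus 0.1, less its mean over all libraries) was -0.10, 0.16 and 0.15 in Con, -0.07, 0.57 and -0.43 in Van, and -0.69, 0.15 and 0.25 in VanLip. For replication and G1/S members it was -0.13, -0.15 and 0.07 in Con, -0.01, 0.20 and -0.06 in Van, and -0.31, 0.23 and 0.16 in VanLip. The group means of all members, 0.02, 0.04 and -0.05, were closer together than the libraries within Van or VanLip.

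**Figure D4:**
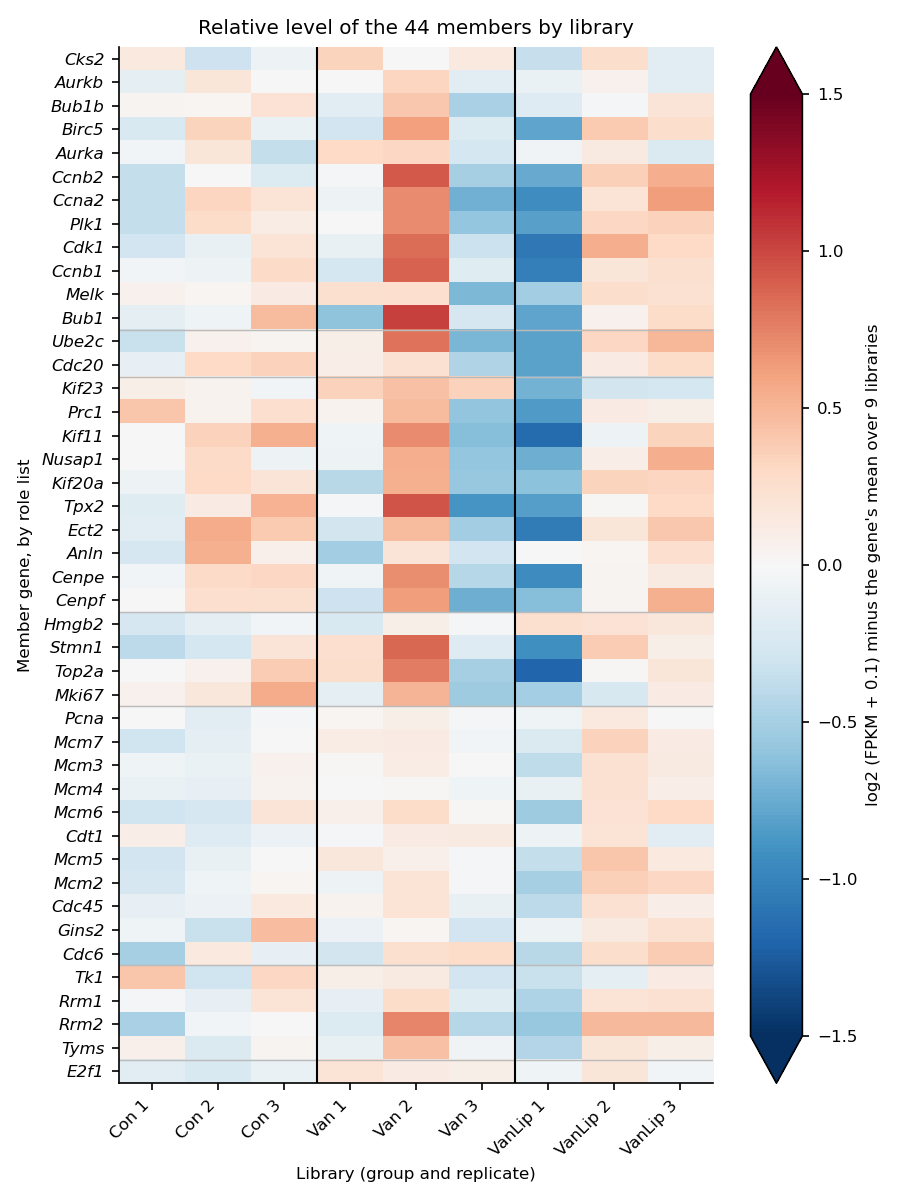
Relative level of the 44 members (log2 of FPKM plus 0.1, less the gene's mean over 9 libraries) by library, with roles divided by grey lines and groups by black lines; red is above and blue below the gene's mean. Van replicate 2 is red and VanLip replicate 1 blue across most mitotic genes, while Kif23 is red in all 3 Van libraries and blue in all 3 VanLip libraries.

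Markers of other spleen cells moved along with these libraries in part. The 8 erythroid markers, which include genes of dividing erythroblasts, summed to between 46.7 and 92.9 FPKM in Con, between 155.2 and 346.1 in Van and between 124.5 and 521.8 in VanLip. Of the 8, 3 were called higher in Van and 6 higher in VanLip than in Con, beside 2.27% and 2.98% of all genes. Expressed as for the members, their mean relative log2 level was -1.24, -0.61 and -1.09 in Con, 0.14, 0.72 and -0.21 in Van, and -0.43, 1.256 and 1.46 in VanLip. It was thus highest in replicate 2 of Van and lowest in replicate 1 of VanLip within their groups, as for the mitotic members, but it separated Con from both other groups, which the members did not. Of the defining erythroid genes, Klf1 and Gata1 averaged 0.376 and 0.200 FPKM and Hba-a1 149.3 FPKM.

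Red pulp macrophage markers, 8 genes, summed to between 1410 and 1683 FPKM in Con, between 1663 and 2213 in Van and between 1394 and 1792 in VanLip, with the highest relative level, 0.40, in Van replicate 2 and the lowest, -0.27, in VanLip replicate 1. All 8 had a log2 value above 0 for Van against Con (median 0.25) and below 0 for VanLip against Van (median -0.20), the directions of Kif23, and Vcam1 was called in both (0.46 and -0.50, DESeq2 adjusted p = 0.0106 and 0.00176). For VanLip against Con, where Kif23 was lower, 5 of the 8 were above 0 (median 0.04) and DESeq2 called 0 (0 at an unadjusted p under 0.05). Classical monocyte markers, 8 genes, had their highest relative level, 0.42, in VanLip replicate 1, and of them Ccr2 was called lower in Van than in Con. Ccr2 and Ly6c2 were called higher in VanLip than in Van (log2 fold changes 1.04 and 0.39, DESeq2 adjusted p = 7.38e-07 and 0.0262), as were Cx3cr1 and Eno3 among 8 nonclassical monocyte markers. Summed FPKM of the 7 progenitor markers above 0 ranged from 6.00 to 7.62 in Con, from 4.09 to 8.21 in Van and from 5.44 to 10.7 in VanLip, and were highest in VanLip replicate 1 of all libraries and in replicate 2 within Van. The mean relative log2 level of the progenitor markers was -0.07 in VanLip replicate 1 and 0.20 in Van replicate 2. Platelet markers, whose sums ranged from 10.7 to 22.2 FPKM in Con and from 4.77 to 12.3 in VanLip, were lowest in VanLip replicate 1. T and NK cells, which the selection is meant to remove, had markers of which none was called and which summed to between 7.44 and 16.9 FPKM over all libraries. Their relative level was -0.12, 0.16 and -0.33 in Van and -0.47, 0.12 and 0.11 in VanLip, with the same highest library in Van and the same lowest in VanLip as the mitotic members. Dendritic cell markers summed to between 92.8 and 118.3 FPKM. Of 8, Xcr1, Clec9a and Siglech were called lower in Van than in Con (3 of 8) and Xcr1 and Cd209a lower in VanLip than in Con (2 of 8). Against Van, Clec9a and Siglech were higher in VanLip (2 of 8). B lineage and plasma cell markers, 8 genes, summed to between 41.5 and 71.9 FPKM, with Sdc1 called lower in Van relative to Con and also relative to VanLip. Neutrophil markers, 8 genes, summed to between 13.4 and 37.1 FPKM, with Retnlg lower in Van and Ngp lower in VanLip than in Con. Beside the calls of this paragraph, 2.27% of all genes were called higher and 2.06% lower in Van against Con. These shares were 2.98% and 3.69% for VanLip against Con, and 4.58% and 5.27% for VanLip against Van. The part of other cells in the levels of the members was not tested.

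**Figure D5:**
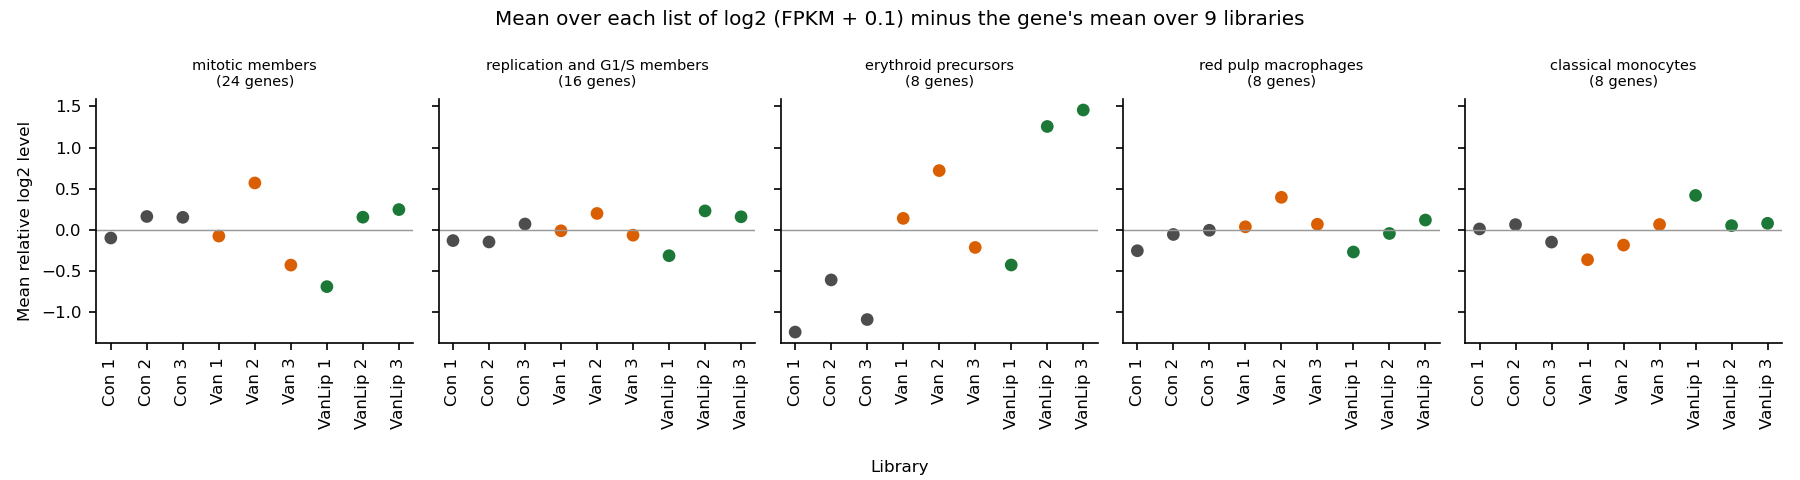
Mean relative log2 level (log2 of FPKM plus 0.1, less each gene's mean over 9 libraries) of 2 groups of members and 3 marker lists in each library, coloured by group. Mitotic members reach 0.57 in Van replicate 2 and -0.69 in VanLip replicate 1, and erythroid markers rise from under -0.6 in each Con library to 1.46 in VanLip replicate 3.

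Other genes of the cycle, in 6 lists that hold none of the members, were counted in the same way. Of 32 other S-phase genes, 1 was called higher and 2 lower in Van than in Con, and of 34 other G2/M genes, 1 higher and 1 lower, beside 4.33% of all genes. Against Con, VanLip showed 0 of the 32 (3 at an unadjusted p under 0.05) and 1 of the 34, Gas2l3, called lower (log2 fold change -0.49, DESeq2 adjusted p = 0.0234), beside 6.67% of all genes. Of these 2 lists, 3 and 1 genes were called between VanLip and Van, beside 9.85% of all genes, so 4 of these 6 counts lay under the share of all genes. Atad2, a chromatin ATPase, rose from 4.13 to 5.25 FPKM in Van (log2 fold change 0.33, DESeq2 adjusted p = 0.0271) and was lower in VanLip than in Van (log2 fold change -0.47, adjusted p = 7.48e-05). The helicase Blm and the fork protection protein Tipin fell in Van by 0.89 and 0.52 on the log2 scale (DESeq2 adjusted p = 0.00185 and 0.0235), and both were higher in VanLip than in Van. Cdc25c, the phosphatase that activates Cdk1, was called lower in Van, but its group means were 0.253, 0.0133 and 0.168 FPKM, and Rangap1, the activator of the Ran GTPase, was higher (log2 fold change 0.40, DESeq2 adjusted p = 0.0200). Slbp, which binds histone mRNA, was the most abundant S-phase gene at 21.9 FPKM, and Jpt1 the most abundant G2/M gene at 80.4 FPKM, and neither was called.

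The 10 inhibitors and antiproliferative genes had a median of 12.6 FPKM, against 2.26 FPKM over the members. The antiproliferative genes Btg1 and Btg2 averaged 232.3 and 177.5 FPKM, and both were lower in VanLip than in Con, by log2 values of -0.39 and -0.34 (DESeq2 adjusted p = 0.00544 and 0.0230). Cdkn1a, which encodes the inhibitor p21, averaged 89.4 FPKM in Con, 111.6 in Van and 82.4 in VanLip, and VanLip was lower than Van (log2 fold change -0.46, DESeq2 adjusted p = 0.0439). Cdkn2d, an inhibitor of Cdk4 and Cdk6, was higher in VanLip than in Van (0.53, adjusted p = 0.00165 with DESeq2), and Wee1, which restrains Cdk1, was lower (-1.24, adjusted p = 0.00227). In counts, the 10 genes gave 0 calls for Van against Con (1 at an unadjusted p under 0.05), 2 between VanLip and Con, and 3 between VanLip and Van, beside 4.33%, 6.67% and 9.85% of all genes. Among 9 G1 cyclins and kinases only Cdk6 was called (1 of 9 beside 6.67%), lower in VanLip than in Con (log2 fold change -0.35, DESeq2 adjusted p = 0.0206), and Ccnd3 was the most abundant at 120.0 FPKM.

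Of 17 E2F, pocket protein and DREAM genes, E2f2 was called lower in Van than in Con (log2 fold change -0.36, DESeq2 adjusted p = 0.0116) and higher in VanLip than in Van (0.52, adjusted p = 1.21e-05). E2f5 was lower in VanLip than in Van, Mybl2, the mitotic activator B-Myb, was higher in VanLip than in Con (0.84, DESeq2 adjusted p = 0.0394) at 0.331 to 0.590 FPKM, and Rb1 was the most abundant at 39.1 FPKM. This list thus had 1, 1 and 2 of 17 called for Van against Con, VanLip against Con and VanLip against Van, beside the same 3 shares of all genes. Of 17 origin and checkpoint genes, Chek2 rose and Atr and Orc3 fell in Van against Con, with log2 values of 0.65, -0.37 and -0.25. Orc4 and Atr were lower in VanLip than in Con, and against Van, Dbf4, Orc4 and Chek2 were lower and Orc3 higher. These were 3, 2 and 4 of 17 genes, beside 4.33%, 6.67% and 9.85% of all genes.

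Some members share sequence or ground with other genes. Exons of 13 members overlapped those of another gene, and of these 10 overlapped a protein-coding gene, all on the opposite strand, among them Mcm7 with Cops6 and Ap4m1, Cdc20 with Elovl1 and Tk1 with Afmid. The libraries were made with a stranded kit, but whether strand was used in counting is not given in the sources used here, so the values of those genes are less certain. Rows for the pseudogenes Pcna-ps2 (6.43 FPKM) and Ccnb2-ps (0.480 FPKM) were listed separately and may have exchanged reads with Pcna and Ccnb2. Neither Kif23 nor Hmgb2 had an overlapping exon.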

How the data were processed

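The authors mapped the reads with HISAT2 2.2.1 on GRCm38 and deposited FPKM per gene, computed by StringTie 2.1.3, together with expected counts made by tximport 1.26.1. The annotation release is not given in the sources used here. Genes were matched by symbol, and where a symbol had several entries that with the highest mean FPKM was kept. The members and lists were chosen with earlier results of these data known.

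The deposited expected counts, rounded, entered a single DESeq2 1.42.0 fit (R 4.3.3) of all 9 libraries and all genes with group as its term, and contrasts were read with two-sided Wald tests. A gene was called at a Benjamini-Hochberg adjusted p of 0.05 or under. Intervals are 95% Wald intervals. The 3 samples of a group are separate mice. The scripts were tested on simulated data. Alternatives used edgeR 4.0.16, limma 3.58.1 on log2 (FPKM + 1) or log2 (FPKM + 0.1), TMM library sizes, filters on low genes, conversion to fragments, thinning of VanLip, pairwise fits, a replicate block, and leaving out each library.

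Members were named with every library if called in any test, if among the 2 highest mean FPKM of their role, or if Mki67, Top2a or Pcna. Other cell cycle genes were named if called or the most abundant of their list, and coordinates came from GENCODE M21. Members named beyond this rule were chosen after their values were seen. One marker list, of germinal centre B cells, is not reported here.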

Additional observations from a re-analysis of the deposited data

How the results depend on the processing

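Van against Con gave 0 members called, and 1 with only the 2 groups compared (beside 803 of 18526 and 975 of 11257 genes). VanLip against Con gave 2, and 0 with edgeR and each of 3 limma fits. Of all genes, DESeq2 called 1105 of 16565 there, edgeR 300 of 16867 and limma 168 to 339. VanLip against Van gave 2, and 1 with edgeR, only the 2 groups compared and each limma fit. All genes called were 1777 of 18035 with DESeq2, 855 of 16867 with edgeR, 1492 of 19118 with 2 groups and 516 to 829 with limma. The test of any difference gave 2, and 1 with edgeR and limma. All genes called in it were 2230 of 16565 with DESeq2, 788 of 16867 with edgeR and 330 to 724 with limma. Leaving out 1 library gave 0 to 1, 0 to 5, 1 to 2 and 2 to 4 members in these 4 tests. All genes called over those omissions ranged from 425 to 913, 606 to 1272, 1139 to 1666 and 1503 to 2232. The median log2 fold change of the members ranged from -0.18 to 0.15, from -0.14 to 0.17 and from -0.21 to 0.16 over those omissions. The cause of these shifts was not tested.

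With a replicate block, VanLip against Van gave 1 member, as Hmgb2 had an adjusted p of 0.0582, and Rrm1 moved to -0.0057, and no other call of a named member changed. Samples with the same number correlated in their deviations by -0.06 to 0.12, so the numbers are not known to pair the mice.

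Uncalled log2 fold changes near 0 changed sign. With TMM sizes these were Cks2 (0.014) and Rrm1 (0.0041) for VanLip against Con, and Mcm7 (0.014) and Pcna (0.0031) for VanLip against Van. With limma, Stmn1 for VanLip against Con was -0.0046 (pseudocount 1), -0.014 (pseudocount 0.1) and -0.0046 (mean FPKM of at least 1), Mcm7 for VanLip against Van was 0.021 in all 3 fits, and Rrm1 was -0.0012 at a pseudocount of 0.1.

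Over omissions of 1 library, sign changes for Van against Con were those of Aurkb (-0.15 to 0.14), Ube2c (-0.14 to 0.56), Top2a (-0.30 to 0.36) and Rrm1 (-0.18 to 0.051). For VanLip against Con they were those of Cks2 (-0.20 to 0.12), Aurkb (-0.18 to 0.025), Ube2c (-0.083 to 0.47), Stmn1 (-0.20 to 0.37) and Rrm1 (-0.14 to 0.17). For VanLip against Van they were those of Aurkb (-0.21 to 0.050), Cdc20 (-0.27 to 0.23), Ube2c (-0.39 to 0.31), Prc1 (-0.39 to 0.22), Mki67 (-0.41 to 0.13), Mcm7 (-0.16 to 0.14), Pcna (-0.077 to 0.020), Rrm1 (-0.11 to 0.21) and Tk1 (-0.17 to 0.028). None of these contrasts was called. With 21.7 fragments for the least covered member and 3 mice a group, 95% bounds reached 0.338-fold and 2.46-fold.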
